A study of Mus musculus with 26 samples.

Results

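The kinetochore, spindle checkpoint and mitotic kinase genes are 40 mouse genes whose products attach chromosomes to the spindle, time chromosome separation and drive mitosis. They were chosen by gene symbol in the probe annotation of both array versions used for the mouse pineoblastomas (PBs), among 19938 named genes on version 1.0 arrays and 22180 on version 2.0 arrays. Of the 40 genes, 39 were measured on both versions, and Ccnb1 was not analysed here. Sgol1 is the older symbol of Sgo1. Levels were read from bulk RNA of 26 samples, each on an Affymetrix Mouse Gene ST array of its own.

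All tumors arose in mice that carried WAP-Cre, a Cre recombinase under the whey acidic protein promoter that is ectopically active in the pineal gland. Rb/p53-mutated PBs (n = 5, version 1.0) came from Rb flox/flox mice with 1 floxed p53 allele and 1 Cre-activated p53 allele that encodes the R270H mutant (p53 lsl_R270H/flox). Rb/p53-deleted PBs came from Rb flox/flox, p53 flox/flox mice, with 11 tumors (PB1 to PB11) on version 1.0 arrays and PB12 on a version 2.0 array. Rb/Dicer1/p53-deleted PBs (n = 3) and Dicer1/p53-deleted PBs (n = 3), both on version 2.0 arrays, carried Dicer1 flox/flox and p53 flox/flox, with and without Rb flox/flox. The floxed Dicer1 segment covers the second RNase III domain and not the whole gene. Normal cerebellum (n = 3, version 1.0) stood in for normal tissue, since no normal pineal gland was on these arrays. The study lists its mice as males and females of mixed background up to 6 months old, though it followed mice of the Dicer1 models for longer. The age at which each tumor was taken is not given in the sources used here. The labels do not say that the tumors of a group came from separate mice, so p-values measure the spread between these samples, which may be technical.

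The inner kinetochore is a protein assembly built on centromeric chromatin that contains the histone variant CENP-A, and the outer kinetochore, with the NDC80 complex at its core, binds spindle microtubules. Kinetochores without proper attachment produce the spindle checkpoint signal, which restrains CDC20 and the anaphase-promoting complex until all chromosomes are attached, while CDK1 with its cyclins, Polo-like kinases and Aurora kinases drive entry into and passage through mitosis. Most of these genes are transcribed from S phase to mitosis. In quiescent cells they are repressed by the DREAM complex of MuvB and pocket proteins at cell cycle homology region (CHR) elements, and in dividing cells they are activated by NF-Y at CCAAT boxes and by B-MYB and FOXM1 through MuvB.

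Levels are given on the log2 scale of robust multi-array average (RMA) values, so a difference of 1 is a doubling. Version 1.0 arrays were quantile-normalized together, because the deposited medians of the p53-mutated tumors (7.04 to 7.12) lay below those of the p53-deleted tumors (7.90 to 8.0) and of cerebellum (7.95 to 8.01). The interquartile range of the deposited values was 2.57 to 2.86 in the p53-mutated tumors, 2.57 to 3.24 in the p53-deleted tumors, where PB11 had the widest, and 3.17 to 3.25 in cerebellum. Version 2.0 arrays had medians of 5.26 to 5.36. Levels of different array versions were not compared. The labelled genotypes could be checked only in part, because an array probe set for a whole transcript includes probes outside a deleted segment. On version 2.0 arrays, Rb1 was at 8.79, 8.54 and 8.30 in Rb/Dicer1/p53-deleted PBs and at 9.52, 9.97 and 9.61 in Dicer1/p53-deleted PBs, a difference of -1.16 (limma adjusted p = 0.371), and PB12 was at 9.07. On version 1.0 arrays, Rb1 differed from cerebellum by 0.14 in Rb/p53-mutated PBs and by 0.33 in Rb/p53-deleted PBs (limma adjusted p = 0.342 and 0.0758). Dicer1 was measured too and differed by 0.08 between Rb/Dicer1/p53-deleted and Dicer1/p53-deleted PBs. Both groups carried the same floxed Dicer1 alleles, so this does not check the Dicer1 label. Dicer1 in PB12 against these groups was not tested. Trp53 was not analysed here. In bulk samples, fewer cells of a type and less RNA per cell cannot be told apart.

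In Rb/p53-deleted PBs, 38 of the 39 measured genes were higher than in normal cerebellum and none was lower. The median difference over the 39 genes was 3.45, a median ratio of 10.9, against a median of 0.01 over all genes. Cyclin A2 (Ccna2), the spindle-associated protein Nusap1, topoisomerase II alpha (Top2a) and the kinase Cdk1 led with ratios between 28.6 and 36.4. In cerebellum most of the 39 genes had low levels, with a median percentile of 24.2 among genes on both array versions and 3 above the median gene. The ratios and their order therefore depend on levels in the lower part of the arrays. Bub3, the adaptor that brings Bub1 to kinetochores, was the gene that did not pass the test. Of all 19938 genes, 25.0% were higher and 27.7% were lower at the same threshold (limma, adjusted p under 0.01). The same 38 genes had every tumor above every cerebellum sample, which held for 22.8% of all genes, while every tumor lay below every cerebellum sample for 25.5% of all genes and for 0 of the 39.

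The promoter sequences printed here show where the strings of the CHR and CCAAT elements lie in genes that were far above cerebellum, with Bub3 beside them. RefSeq promoter windows (GRCm38.p6), 250 bases before to 50 after the annotated start of transcription, were matched to 34 of the 40 genes. Each line runs 5′ to 3′ along the gene, and capitals mark TTTGAA or TTCGAA, the CHR string, and CCAAT, each on either strand. The 5 genes are those with the largest difference between Rb/p53-deleted PBs and cerebellum among genes whose window held both strings.
Top2a (chr11:99024140-99024439, minus strand): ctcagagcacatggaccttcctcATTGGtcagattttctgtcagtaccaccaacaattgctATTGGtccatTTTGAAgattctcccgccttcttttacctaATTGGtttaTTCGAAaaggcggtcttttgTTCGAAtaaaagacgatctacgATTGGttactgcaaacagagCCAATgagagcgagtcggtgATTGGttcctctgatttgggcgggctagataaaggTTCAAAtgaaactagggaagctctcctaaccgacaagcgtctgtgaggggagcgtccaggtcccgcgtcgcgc
Cdk1 (chr10:69352863-69353162, minus strand): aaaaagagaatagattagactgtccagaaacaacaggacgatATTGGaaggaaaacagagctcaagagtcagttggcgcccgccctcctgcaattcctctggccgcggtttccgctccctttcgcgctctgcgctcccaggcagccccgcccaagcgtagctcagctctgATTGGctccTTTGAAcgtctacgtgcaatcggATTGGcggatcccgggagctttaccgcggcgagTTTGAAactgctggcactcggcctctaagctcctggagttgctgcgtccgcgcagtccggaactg
Bub1 (chr2:127831810-127832109, minus strand): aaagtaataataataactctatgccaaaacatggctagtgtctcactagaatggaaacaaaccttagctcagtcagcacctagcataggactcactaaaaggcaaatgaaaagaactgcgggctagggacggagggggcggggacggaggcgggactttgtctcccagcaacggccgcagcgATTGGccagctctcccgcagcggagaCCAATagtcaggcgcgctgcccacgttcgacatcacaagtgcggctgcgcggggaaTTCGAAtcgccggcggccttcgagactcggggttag
Plk1 (chr7:122159185-122159484, plus strand): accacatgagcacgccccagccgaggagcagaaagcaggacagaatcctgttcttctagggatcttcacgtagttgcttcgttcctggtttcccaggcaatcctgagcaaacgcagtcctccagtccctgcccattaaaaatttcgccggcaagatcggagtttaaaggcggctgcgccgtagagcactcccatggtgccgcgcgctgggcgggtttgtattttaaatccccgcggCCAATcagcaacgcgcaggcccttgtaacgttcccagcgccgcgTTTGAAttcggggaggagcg
Prc1 (chr7:80294201-80294500, plus strand): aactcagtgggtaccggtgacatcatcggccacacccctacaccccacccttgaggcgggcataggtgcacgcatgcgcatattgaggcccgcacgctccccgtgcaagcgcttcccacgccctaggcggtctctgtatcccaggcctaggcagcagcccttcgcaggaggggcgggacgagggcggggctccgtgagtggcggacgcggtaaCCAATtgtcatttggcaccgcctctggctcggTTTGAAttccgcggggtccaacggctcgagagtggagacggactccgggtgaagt
Bub3 (chr7:131560120-131560419, plus strand): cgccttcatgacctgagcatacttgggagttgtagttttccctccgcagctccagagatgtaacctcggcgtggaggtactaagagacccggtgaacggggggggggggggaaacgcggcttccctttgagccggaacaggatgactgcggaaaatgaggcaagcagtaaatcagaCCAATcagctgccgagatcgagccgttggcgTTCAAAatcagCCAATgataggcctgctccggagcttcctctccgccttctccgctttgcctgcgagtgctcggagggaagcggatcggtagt

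The Bub3 window held both strings, and the other 5 windows shown had been chosen for holding both. Ccna2 (difference 5.18) had no window and Nusap1 (5.00) held neither string, so they are not shown. The Top2a window held 4 CHR strings and 6 CCAAT strings and the Cdk1 window held 2 and 3, whereas Plk1 and Prc1 had 1 of each, and Bub1 and Bub3 had 1 CHR string and 2 CCAAT strings. Over the 34 genes, 21 windows (61.8%) held a CHR string, against 19.4% of the 27025 windows in the table, counting 1 window per gene. A CCAAT string was present in 26 (76.5%), against 37.9% of all windows. Both strings together were present in 20 windows (58.8%, against 7.7%), and 16 windows (47.1%, against 12.2%) held more than 1 CCAAT string. Matches to the E2F strings TTCCCGC or TTGGCGC, again on either strand, were present in 7 windows (20.6%, against 6.9%). Windows of Cenpp, Cenpt, Nuf2, Mad2l1, Plk4, Birc5 and Nusap1 held neither a CHR nor a CCAAT string. A match describes these letters in this window. Spc24, Cdc25c, Ccna2, Aurkb, Incenp and Tpx2 had no window in the table.

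By role, the 4 genes of spindle and chromosome structure had the highest median difference between Rb/p53-deleted PBs and cerebellum, at 4.53 (range 4.05 to 5.00). All 4 were higher, including the microtubule bundler Prc1 (4.05) and the spindle assembly factor Tpx2 (4.08). The 7 mitotic kinases, cyclins and phosphatase were all higher, with a median of 3.57 (2.63 to 5.18). All 6 outer kinetochore genes were higher, at a median of 3.56 (1.51 to 3.85), led by the kinesin Cenpe (3.85) and the NDC80 complex subunit Spc25 (3.77). The 10 inner kinetochore genes were likewise all higher, at a median of 3.18 (1.00 to 4.01), with Cenpk at 4.01, Cenpn at 3.57 and the centromeric histone Cenpa at 3.18. All 4 genes of the chromosomal passenger complex, which corrects faulty attachments, were higher, from its scaffold Incenp (1.87) to its kinase Aurkb (3.88). The anaphase and cohesion genes Cdc20 (2.52), the separase gene Espl1 (2.38) and the cohesin protector Sgol1 (3.58) were all higher. Of the 5 spindle checkpoint genes, 4 were higher, among them the kinase genes Bub1 (4.59) and Ttk (3.24) and the mitotic arrest gene Mad2l1 (2.53). Standard errors of the 39 differences lay between 0.0683 and 0.231, and the largest adjusted p among the 38 was 1.14e-06.

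Ccna2, whose product activates CDK1 and CDK2, ranged in Rb/p53-deleted PBs from 11.90 in PB11 to 12.78 in PB2 (median 12.57), and was at 7.15, 7.66 and 7.12 in cerebellum. Every tumor stood far above every cerebellum sample, by 5.18 ± 0.14 in the means (SE, n = 11 and 3), a ratio of 36.4 (limma adjusted p = 2.87e-14). Nusap1 ranged from 11.11 in PB11 to 11.80 in PB8 (median 11.68) in Rb/p53-deleted PBs and was at 6.60, 6.62 and 6.49 in cerebellum. The 3 cerebellum samples were close together and all tumors lay well above them, with a difference of 5.00 ± 0.13 (adjusted p = 1.1e-14). Top2a, which untangles sister chromatids, ranged from 11.31 in PB11 to 11.86 in PB4 (median 11.67) in Rb/p53-deleted PBs, against 6.59, 7.12 and 6.24 in cerebellum. Cerebellum sample 2 was the highest of the 3 and no groups overlapped, with a difference of 4.99 ± 0.15 (adjusted p = 8.59e-14). Top2a had 2 probe sets on version 1.0 arrays, and the mean of both gave 3.17 (adjusted p = 3.84e-13), the second set having a mean level of 5.23 over the arrays.

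Cdk1, the kinase that starts mitosis, ranged from 12.08 in PB11 to 12.50 in PB1 (median 12.39) in Rb/p53-deleted PBs and was at 7.62, 8.08 and 6.89 in cerebellum. The tumors were tightly grouped (SD 0.120) and cerebellum was more spread (SD 0.595), with a difference of 4.84 ± 0.16 (adjusted p = 1.76e-13). Bub1, the checkpoint kinase that recruits other checkpoint proteins to kinetochores, ranged from 10.22 in PB11 to 10.94 in PB6 (median 10.72) in Rb/p53-deleted PBs, against 6.16, 6.37 and 5.77 in cerebellum. Its groups were well apart, at a difference of 4.59 ± 0.14 (adjusted p = 8.47e-14). Plk1, the Polo-like kinase of mitotic entry and exit, ranged from 11.24 in PB10 to 11.81 in PB6 (median 11.45) in Rb/p53-deleted PBs and was at 7.32, 7.41 and 6.90 in cerebellum. No cerebellum sample reached any tumor, and the difference was 4.21 ± 0.11 (adjusted p = 1.79e-14). The B-type cyclin Ccnb2 ranged from 11.54 in PB3 to 12.06 in PB11 (median 11.76) in Rb/p53-deleted PBs, against 8.13, 8.39 and 8.08 in cerebellum. PB11, the lowest tumor for the 5 genes Ccna2, Nusap1, Top2a, Cdk1 and Bub1, was the highest for Ccnb2, and the groups differed by 3.57 ± 0.11 (adjusted p = 7.6e-14).

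**Figure D1:**
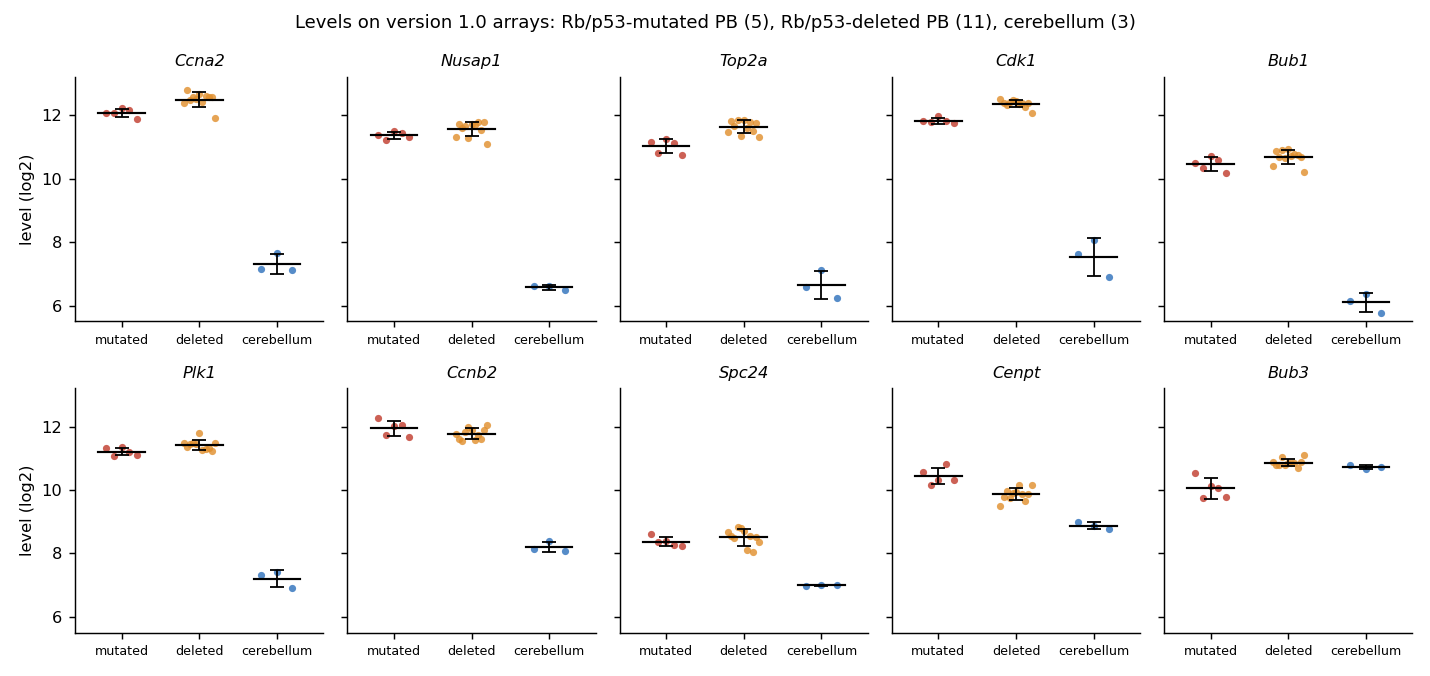
Levels (log2, quantile-normalized) of 10 genes on version 1.0 arrays in Rb/p53-mutated PBs (n = 5), Rb/p53-deleted PBs (n = 11) and normal cerebellum (n = 3), with a point per array, a bar at the mean and a whisker for the SD. The tumor points lie above all cerebellum points for 9 genes, and Bub3 is the exception, with Rb/p53-mutated PBs at 9.73 to 10.53 and cerebellum at 10.66 to 10.78.

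At the other end, Bub3 ranged from 10.68 in PB9 to 11.10 in PB11 (median 10.86) in Rb/p53-deleted PBs, and was at 10.78, 10.66 and 10.73 in cerebellum. These groups overlapped, and the difference of 0.14 (95% interval -0.02 to 0.31, adjusted p = 0.122) changed its sign with the scaling, to -0.28 on deposited values and -0.11 after median centring. The inner kinetochore gene Cenpt, which links centromeric chromatin to the NDC80 complex, ranged from 9.51 in PB1 to 10.17 in PB11 (median 9.88) in Rb/p53-deleted PBs, against 8.98, 8.87 and 8.77 in cerebellum. Every tumor was above cerebellum, by 1.00 ± 0.11 in the means, a ratio of 1.99 (adjusted p = 1.14e-06). Spc24, a subunit of the NDC80 complex, ranged from 8.04 in PB9 to 8.85 in PB4 (median 8.54) in Rb/p53-deleted PBs, against 6.99, 6.99 and 7.0 in cerebellum. Its difference of 1.51 ± 0.14 (adjusted p = 1.17e-07) was below the differences of the other NDC80 complex genes Ndc80 (3.04), Nuf2 (3.59) and Spc25 (3.77), though no test compared these differences with each other.

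Deposited values of PB11 had the spread of the cerebellum arrays, so PB11 and cerebellum were treated as 1 array set and the other 10 deleted tumors as another, a division the labels do not give. With the set as a block the difference is that of PB11 alone from the 3 cerebellum samples, since the second set holds no cerebellum. This is an arm of 1 tumor, assumed to vary like the others, and its differences were 4.59 for Ccna2, 2.76 for Cenpe, 2.70 for Cenpf and 2.38 for Ndc80. The tissue of the 2 groups also differed in its cell types. Of 12 measured pineal markers, 10 were higher in Rb/p53-deleted PBs (list mean 10.61 to 10.78 in tumors, 7.35 to 7.64 in cerebellum). Markers of granule neurons (11 of 13), Purkinje cells (8 of 8), oligodendrocytes (9 of 9) and astrocytes (9 of 10) were lower. Of 12 markers of microglia and macrophages, 7 were higher and 2 lower (list mean 8.44 to 9.01 in tumors, 8.32 to 8.35 in cerebellum), and 5 of 10 vascular markers were lower. The list mean of the granule neuron markers was 8.75 to 9.33 in the tumors and 12.29 to 12.32 in cerebellum. The part of these cell types in the result was not tested.

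**Figure D2:**
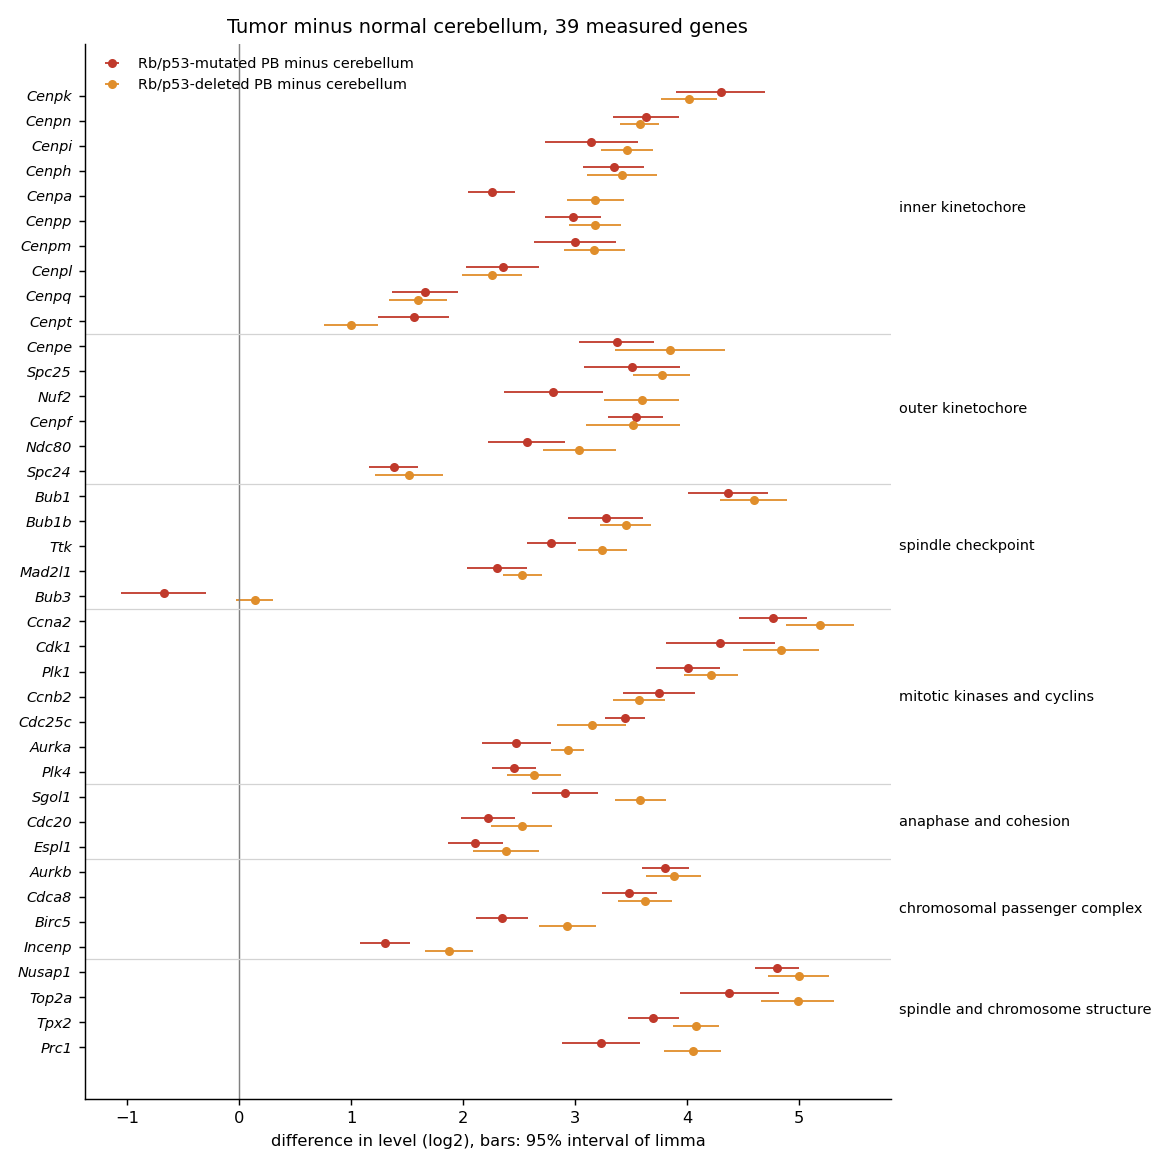
Difference from normal cerebellum (log2, with its 95% interval) of the 39 genes, grouped by role, for Rb/p53-mutated PBs (red) and Rb/p53-deleted PBs (orange). Nearly all intervals lie above 0; Bub3 is the only gene with a difference near or below 0, at -0.67 in Rb/p53-mutated PBs and 0.14 in Rb/p53-deleted PBs, the second of which turns negative on deposited and median-centred values.

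Other genes of the same machinery, taken from lists of related genes, were also mostly higher in Rb/p53-deleted PBs than in cerebellum. All 15 further spindle and cytokinesis genes were higher, at a median of 4.04, among them the proliferation antigen Mki67 (5.15), the motor Kif11 (4.92), Hmmr (4.62) and the cytokinesis factor Ect2 (4.48). All 18 cohesin and condensin genes were higher, at a lower median of 1.60, with the condensin subunits Ncaph (5.02), Ncapg (4.07), Smc4 (4.05) and Ncapg2 (3.47) first. Of 23 other kinetochore and centromere genes, 19 were higher and 1 was lower (median 1.97), led by Knl1 (4.62), the scaffold to which Bub1 binds, and Kntc1 (4.51). Of 19 regulators of mitotic entry, 16 were higher (median 1.59), with E2f8 (4.08), the transcription factor Foxm1 (3.81), the kinase Mastl (3.39) and Cks1b (2.87). The anaphase-promoting complex list was the least changed, with 11 of 17 higher and a median of 0.49. Its high members were the inhibitor Fbxo5 (3.57) and the ubiquitin-conjugating enzymes Ube2c (3.42) and Ube2s (1.55), while the core subunit Cdc16 was at 0.93. This list had 5 higher and 1 lower on deposited values (median 0.14) and 9 higher and 1 lower after median centring (0.31). Of the cohesin and condensin genes, 14 were higher on deposited values (median 1.21) and 15 after median centring (1.38), with none lower. The other 3 lists had 14, 16 and 16 higher on deposited values and 14, 18 and 16 after median centring, in the order spindle and cytokinesis, kinetochore and mitotic entry. Of all 19938 genes, 3937 were higher and 6356 lower on deposited values, and 5917 and 5200 after median centring.

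In Rb/p53-mutated PBs, 38 of the 39 genes were higher than in cerebellum and 1, Bub3, was lower. The median difference was 3.14, a median ratio of 8.84, against -0.02 over all genes. Nusap1 (ratio 27.8) and Ccna2 (27.2) led again, followed by Top2a, Bub1, the inner kinetochore gene Cenpk and Cdk1. Over all genes, 23.8% were higher and 27.6% lower at this threshold (limma, adjusted p under 0.01). On deposited values, where the mutated arrays lay lower as a whole, 36 of the 39 genes were higher and 1 lower (999 and 15077 of all genes), and after median centring 38 were higher and 1 lower (7012 and 4742 of all genes). Every tumor lay above every cerebellum sample for 38 of the 39 genes, and below for Bub3, which held for 30.2% and 34.0% of all genes. This comparison used the same 3 cerebellum samples as the one before.

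Nusap1 was at 11.37, 11.21, 11.51, 11.44 and 11.33 in Rb/p53-mutated PB1 to PB5, against 6.49 to 6.62 in cerebellum. The 5 tumors were close together and all far above cerebellum, by 4.80 ± 0.09 (SE, n = 5 and 3, adjusted p = 1.2e-09). Ccna2 was at 12.06, 12.07, 12.21, 12.15 and 11.88 in the mutated tumors, against 7.12 to 7.66 in cerebellum. PB5 was the lowest tumor and still far from any cerebellum sample, and the difference was 4.76 ± 0.14 (adjusted p = 5.86e-09). Top2a was at 11.17, 10.82, 11.26, 11.12 and 10.75 in Rb/p53-mutated PBs, against 6.24 to 7.12 in cerebellum. PB2 and PB5 were the lower tumors, no groups overlapped, and the difference was 4.38 ± 0.20 (adjusted p = 8.11e-08). The lowest difference of Top2a under the alternative settings, which include the mean of its 2 probe sets, was 2.15. Bub1 was at 10.50, 10.33, 10.71, 10.60 and 10.18 in Rb/p53-mutated PBs, against 5.77 to 6.37 in cerebellum. All tumors were above, by 4.36 ± 0.16 (adjusted p = 2.26e-08).

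Cenpk, a subunit of the inner kinetochore network, was at 9.82, 10.05, 9.94, 10.55 and 10.37 in Rb/p53-mutated PBs and at 5.95, 5.99 and 5.60 in cerebellum. PB4 and PB5 were the highest tumors, and the difference was 4.30 ± 0.18 (adjusted p = 4.5e-08). Cdk1 was at 11.81, 11.78, 11.97, 11.82 and 11.74 in Rb/p53-mutated PBs, against 6.89 to 8.08 in cerebellum. The mutated tumors lay within 0.3 of each other on the log2 scale and differed from cerebellum by 4.30 ± 0.22 (adjusted p = 1.7e-07). Ccnb2 was at 12.27, 11.75, 12.01, 12.06 and 11.68 in Rb/p53-mutated PBs, against 8.08 to 8.39 in cerebellum, and all tumors were above, by 3.75 ± 0.14 (adjusted p = 3.06e-08).

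The smallest differences from cerebellum were those of Bub3, Incenp and Spc24. Bub3 was at 10.53, 9.73, 10.13, 10.05 and 9.79 in Rb/p53-mutated PBs and at 10.78, 10.66 and 10.73 in cerebellum. All 5 tumors were below cerebellum, PB1 only slightly, and the difference was -0.67 ± 0.17 (95% interval -1.05 to -0.30, adjusted p = 0.00588). This call did not hold without cerebellum sample 1, 2 or 3 (adjusted p = 0.0263, 0.0174 and 0.023). Nor did it hold without Rb/p53-mutated PB3, PB4 or PB5 (adjusted p = 0.011, 0.0129 and 0.0114). In these settings the differences lay between -0.71 and -0.61. Incenp was at 9.33, 9.06, 9.28, 9.20 and 8.96 in Rb/p53-mutated PBs, against 7.86, 7.82 and 7.90 in cerebellum. The tumors were all above, by 1.30 ± 0.10 (adjusted p = 2.8e-06), but by only 0.34 on deposited values (adjusted p = 0.0156). Spc24 was at 8.61, 8.37, 8.39, 8.28 and 8.22 in Rb/p53-mutated PBs, against 6.99 to 7.0 in cerebellum, and was higher in every tumor, by 1.38 ± 0.10 (adjusted p = 1.53e-06).

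By role, the medians in Rb/p53-mutated PBs against cerebellum were 4.04 for spindle and chromosome structure, 3.75 for kinases and cyclins, 3.09 for the outer kinetochore, 2.99 for the inner kinetochore, 2.91 for the passenger complex, 2.79 for the checkpoint and 2.22 for anaphase and cohesion. All members of each role except Bub3 were higher. Cdc25c, the phosphatase that activates CDK1, was higher by 3.44 (ratio 10.9), Aurkb by 3.81 and Plk1 by 4.0. The related lists were again mostly higher, with 14 of 15 spindle and cytokinesis genes (median 3.62, Mki67 at 4.93), 17 of 19 mitotic entry regulators (1.44, E2f8 at 4.0), 15 of 18 cohesin and condensin genes (1.31, Ncaph at 4.67) and 17 of 23 kinetochore genes (2.10, Knl1 at 4.60, and 1 fell). On deposited values these lists had 14 higher and 1 lower, 10 and 4, 8 and 6, and 13 and 7. Of all 19938 genes, 999 were higher and 15077 lower on those values. For the anaphase-promoting complex list, 7 of 17 genes were higher and 2 lower, with Ube2c at 3.96. Its median of 0.11 turned to -1.11 on deposited values and -0.02 after median centring, where the medians over all genes were -0.92 and 0.18. Pineal markers were higher in Rb/p53-mutated PBs (9 of 12), and markers of granule neurons (11 of 13), Purkinje cells (8 of 8), oligodendrocytes (9 of 9) and astrocytes (8 of 10) were lower. Of the vascular markers, 3 of 10 were lower. Markers of microglia and macrophages had 8 of 12 higher and 2 lower, but 4 higher and 4 lower on deposited values (median -0.04). Their part in the result was not tested.

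The last comparison on version 1.0 arrays asks whether tumors with a mutant p53 allele differ from tumors with p53 deleted, both with Rb deleted. Set directly against Rb/p53-deleted PBs, 19 of the 39 genes were lower in the Rb/p53-mutated tumors and 2 were higher, and 18 did not pass the test (limma, adjusted p under 0.05). The centromeric histone gene Cenpa, Prc1 and Bub3 showed the largest differences, with ratios of 0.526, 0.568 and 0.568. Over all 19938 genes, 25.9% were lower and 20.7% higher. The median difference over the 39 genes was -0.23, a median ratio of 0.853, against -0.04 over all genes, and 31 of the 39 differences were negative. These counts depended on the scaling. On deposited values, where all genes had a median difference of -0.86, 38 of the 39 genes were lower and none higher (18392 and 147 of all genes). After median centring, which gave a median over all genes of 0.06, 12 were lower and 5 higher (2841 and 5434 of all genes). Relative to the median gene, the median of the 39 genes lay at -0.19 after quantile normalization and at -0.17 on the other scales. The Rb/p53-mutated arrays have deposited medians of their own, so the array set and the genotype cannot be told apart.

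The 12 genes Cenpa, Ndc80, Nuf2, Bub3, Ttk, Aurka, Cdk1, Sgol1, Birc5, Incenp, Prc1 and Top2a were lower in Rb/p53-mutated PBs under every one of the 13 alternative settings, which left out deleted PB11 and each mutated tumor but no other deleted tumor. For 9 of the 39 genes (Cenpa, Prc1, Bub3, Sgol1, Top2a, Birc5, Incenp, Cdk1 and Ttk) every mutated tumor lay below every deleted tumor, which held for 8.36% of all genes. The opposite held for none of the 39 and for 7.29% of all genes. The 2 higher genes, Cenpt and Cdc25c, did not keep that call under every setting.

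The other 7 lower genes rested on the setting or on single tumors, and none of them was called after median centring. Ccna2 and Tpx2 were called under the 12 other settings of the 13 (median centring gave -0.11 and -0.25, adjusted p = 0.332 and 0.0592). Mad2l1 was called under 9, and not without mutated PB1 (adjusted p = 0.11) or PB2 (0.0941). Cdc20 was also called under 9, and not without mutated PB2 (0.0533), PB4 (0.0524) or PB5 (0.119). Cenpi, Cenpe and Plk1 were called under 7 each. Cenpi was not called without mutated PB2 to PB5 (adjusted p = 0.0699 to 0.141), Cenpe without PB1, PB2, PB4 or PB5 (0.0638 to 0.12), and Plk1 without mutated PB2, PB4 or PB5 (0.0834 to 0.12) or deleted PB11 (0.0523). Cdc25c was not called higher without any 1 of the 5 mutated tumors (adjusted p = 0.0537 to 0.103). Leaving out deleted PB11 added Bub1 (-0.28), Espl1 (-0.31), Cdca8 (-0.19) and Nusap1 (-0.24) to the lower genes. Leaving out mutated PB1 or PB3 made Cenpk a higher gene (0.36 and 0.34), and leaving out mutated PB4 made Cenpp a lower one (-0.25).

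Cenpa was at 10.03, 9.93, 9.77, 9.75 and 9.97 in Rb/p53-mutated PBs and ranged from 10.51 in PB9 to 11.15 in PB6 (median 10.75) in Rb/p53-deleted PBs. The highest mutated tumor was below the lowest deleted tumor, and the difference was -0.93 ± 0.10 (SE, n = 5 and 11, adjusted p = 1.54e-06). Prc1 was at 9.99, 9.71, 9.95, 9.90 and 9.40 in Rb/p53-mutated PBs, against 10.22 in PB9 to 10.92 in PB4 (median 10.62) in Rb/p53-deleted PBs. The groups did not overlap, PB5 was the lowest, and the difference was -0.82 ± 0.11 (adjusted p = 1.22e-05). Bub3, at 9.73 to 10.53 in Rb/p53-mutated PBs against 10.68 to 11.10 in Rb/p53-deleted PBs, was also lower in every mutated tumor, by -0.82 ± 0.10 in the means (adjusted p = 8.75e-06). Nuf2, a microtubule-binding subunit of the NDC80 complex, was at 8.99, 8.76, 9.61, 9.19 and 8.69 in Rb/p53-mutated PBs, against 9.24 in PB1 to 10.22 in PB11 (median 9.90) in Rb/p53-deleted PBs. Mutated PB3 lay within the range of the deleted tumors, and the difference was -0.79 ± 0.15 (adjusted p = 0.000519).

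Sgol1 was at 9.67, 9.39, 9.77, 9.82 and 9.30 in Rb/p53-mutated PBs, against 9.99 in PB1 to 10.53 in PB11 (median 10.20) in Rb/p53-deleted PBs. The groups were apart, by -0.67 ± 0.10 in the means (adjusted p = 7.04e-05). Top2a, at 10.75 to 11.26 in Rb/p53-mutated PBs against 11.31 to 11.86 in Rb/p53-deleted PBs, did not overlap either, with a difference of -0.61 ± 0.11 (adjusted p = 0.000216). Cdk1, at 11.74 to 11.97 in Rb/p53-mutated PBs against 12.08 to 12.50 in Rb/p53-deleted PBs, was lower by -0.54 ± 0.07 (adjusted p = 7.65e-06), with no overlap. Ccna2, at 11.88 to 12.21 in Rb/p53-mutated PBs against 11.90 to 12.78 in Rb/p53-deleted PBs, was lower by -0.42 ± 0.10 in the means (adjusted p = 0.00356), and the groups overlapped at PB11. Ccnb2 did not pass the test, at 11.68 to 12.27 in Rb/p53-mutated PBs against 11.54 to 12.06 in Rb/p53-deleted PBs. Its difference was 0.18 (95% interval -0.04 to 0.39, adjusted p = 0.16) and turned to -0.44 on deposited values.

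Cenpt was at 10.55, 10.16, 10.32, 10.81 and 10.32 in Rb/p53-mutated PBs, against 9.51 in PB1 to 10.17 in PB11 (median 9.88) in Rb/p53-deleted PBs. Mutated PB2 lay just within the deleted range, and Cenpt was higher by 0.56 ± 0.11 (adjusted p = 0.000516) on quantile-normalized values, though the difference was -0.26 on deposited values. Cdc25c was at 9.33, 9.36, 9.24, 9.15 and 9.17 in Rb/p53-mutated PBs, against 8.65 in PB9 to 9.46 in PB11 (median 8.92) in Rb/p53-deleted PBs. It was higher by 0.30 ± 0.12 (adjusted p = 0.0452) with overlapping groups, and its difference was -0.60 on deposited values. The 3 genes nearest to no difference were Cenpf, Cenpn and Cenpq. The kinetochore protein gene Cenpf was at 9.95, 9.93, 10.14, 9.91 and 9.69 in Rb/p53-mutated PBs, against 9.09 in PB11 to 10.31 in PB4 (median 9.95) in Rb/p53-deleted PBs, so the mutated tumors lay within the deleted range, with a difference of 0.02 (95% interval -0.31 to 0.36). Cenpn, which recognises CENP-A chromatin, was at 11.45, 11.12, 11.47, 11.74 and 11.25 in Rb/p53-mutated PBs, against 11.13 in PB9 to 11.47 in PB6 (median 11.41) in Rb/p53-deleted PBs, with a difference of 0.06 (-0.13 to 0.25). Cenpq was at 8.94, 8.60, 9.17, 9.08 and 9.01 in Rb/p53-mutated PBs, against 8.56 in PB2 to 9.20 in PB9 (median 8.94) in Rb/p53-deleted PBs, with a difference of 0.06 (-0.16 to 0.29). For all 3 genes the groups overlapped, and on deposited values the differences were -0.81 for Cenpf, -0.66 for Cenpn and -0.82 for Cenpq.

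**Figure D3:**
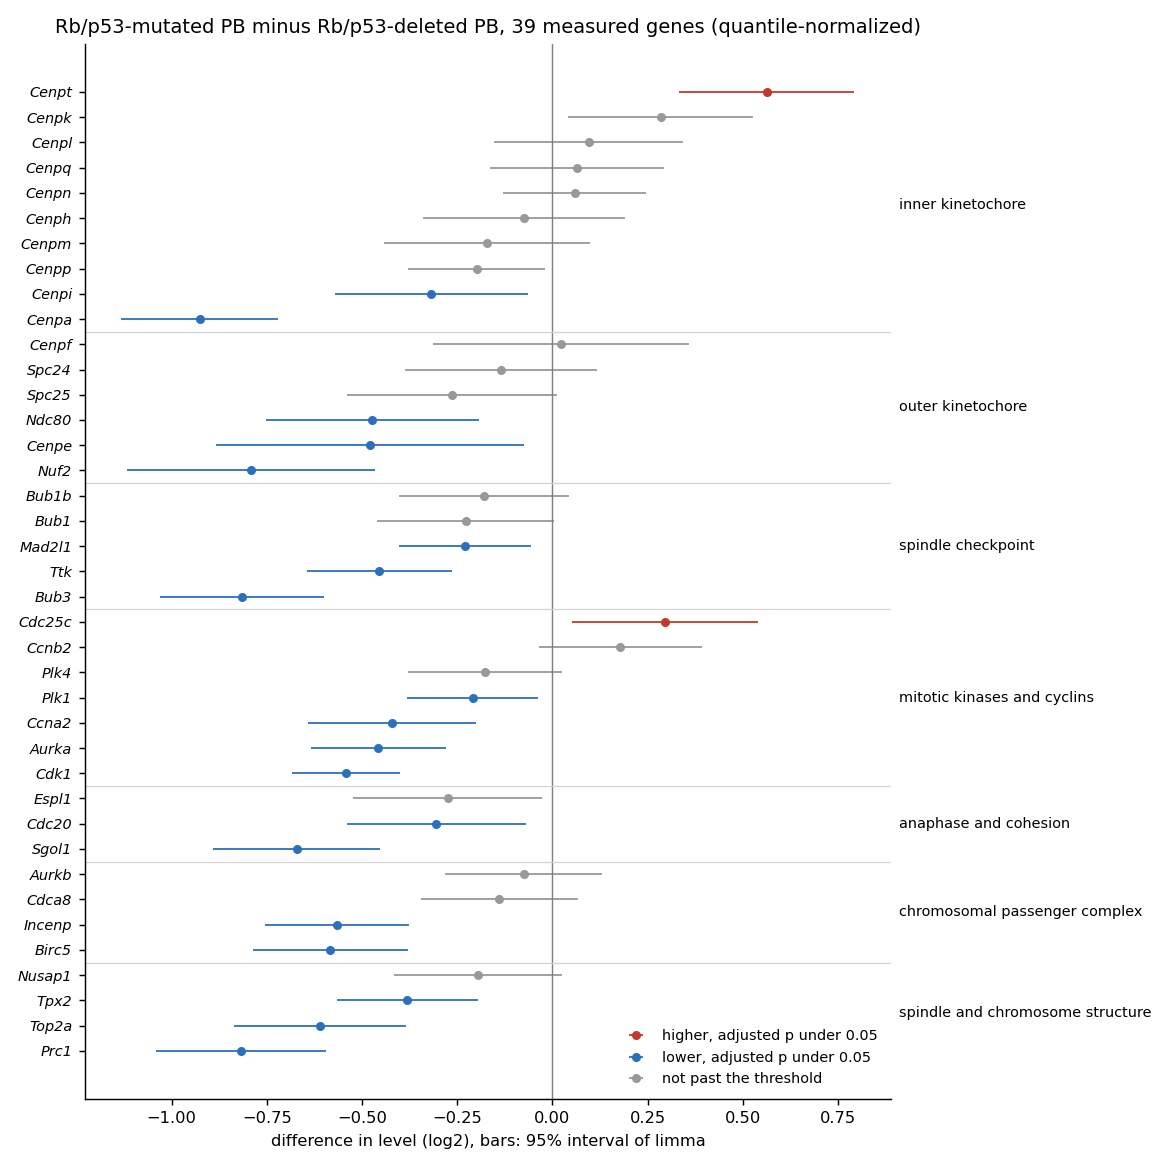
Level in Rb/p53-mutated PBs minus that in Rb/p53-deleted PBs (log2, quantile-normalized, with its 95% interval) of the 39 genes by role, in blue where lower, red where higher and grey where the adjusted p was not under 0.05. There are 19 blue, 2 red and 18 grey genes, from -0.93 for Cenpa to 0.56 for Cenpt, and Cenpt and Cdc25c, both red here, have negative differences on deposited values, and Mad2l1, blue here, is at 0.0091 after median centring.

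By role, 3 of 4 genes of spindle and chromosome structure, 3 of 6 outer kinetochore genes and 3 of 5 checkpoint genes were lower in the p53-mutated than in the p53-deleted tumors (quantile-normalized medians -0.50, -0.37 and -0.23). Of the kinases and cyclins, 4 of 7 were lower, namely Aurka (-0.46), Cdk1, Ccna2 and Plk1 (-0.21), and Cdc25c was higher. In the passenger complex, the survivin gene Birc5 (-0.58) and Incenp (-0.57) were lower and the other members Cdca8 (-0.14) and Aurkb (-0.08, and 0.11 after median centring) did not pass the test. For the inner kinetochore, 2 of 10 were lower (Cenpa and Cenpi) and 1 was higher, with a median of -0.01 that turned to -0.88 on deposited values and 0.05 after median centring. The medians over all genes on those scales were -0.86 and 0.06. Cdc20 (-0.30) and Sgol1 were lower among the anaphase and cohesion genes. Remaining lower genes were Tpx2 (-0.38), Ttk (-0.45), Ndc80 (-0.47), Cenpe (-0.48) and Mad2l1 (-0.23, but 0.0091 after median centring). Among all 19938 genes, 25.9% were lower and 20.7% higher, and after median centring 2841 were lower and 5434 higher. After median centring, 2 of 4 spindle and chromosome structure genes, 2 of 6 outer kinetochore genes, 2 of 5 checkpoint genes, 2 of 4 passenger complex genes and 1 of 3 anaphase genes were lower and none higher, while the kinases and cyclins had 2 lower and 2 higher and the inner kinetochore 1 lower and 3 higher.

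Of the related lists, 14 of 18 cohesin and condensin genes were lower in Rb/p53-mutated than in Rb/p53-deleted PBs and 1 was higher, with a median of -0.34. The largest were the condensin ATPase gene Smc4 (-0.96), the cohesin release factor Wapl (-0.89), Stag2 (-0.82) and Ncapg2 (-0.78). After median centring 7 of the 18 were lower and 1 higher, and these 4 genes were lower on all 3 scales. The higher gene, the securin gene Pttg1, was at 0.71, at 0.78 after median centring and at -0.15 on deposited values. Of 15 spindle and cytokinesis genes, 10 were lower and none higher (median -0.36, with Ckap2l at -1.03 and the kinesin Kif2c at -0.79), and 7 were lower after median centring. The anaphase-promoting complex list had 8 of 17 lower and 1 higher (median -0.21), with Anapc13 at -1.20 and Fbxo5 at -0.82. Ube2c was at 0.54, at 0.78 after median centring and at -0.15 on deposited values. Of 23 kinetochore genes, 9 were lower and 2 higher (median -0.10), and after median centring 4 were lower and 4 higher. Of 19 mitotic entry regulators, 6 were lower and 2 higher, with a median of 0.03 that turned to -0.82 on deposited values. At the same threshold 25.9% of all genes were lower and 20.7% higher. After median centring, 2841 of all 19938 genes were lower and 5434 higher. On deposited values none of these related genes was higher and 17 of 18, 15 of 15, 16 of 17, 21 of 23 and 19 of 19 were lower. Of all 19938 genes, 147 were higher and 18392 lower on these values, with a median difference of -0.86, so these counts follow the shift of the whole arrays. Counts for markers of other cells are to be read beside the 20.7% of all genes that were higher and the 25.9% that were lower. Pineal markers had 1 of 12 higher and 1 lower, granule neuron markers 3 of 13 higher and 3 lower. Purkinje markers had 1 of 8 higher and 2 lower, astrocyte markers 1 of 10 higher and 1 lower. Oligodendrocyte markers had 0 of 9 higher and 4 lower. After median centring, pineal and granule neuron markers had 4 higher and 0 lower each. Purkinje markers then had 2 higher and 2 lower, astrocyte markers 3 and 1, and oligodendrocyte markers 1 and 2. The p53-mutated tumors had higher levels of 7 of 12 markers of microglia and macrophages and a lower level of 1 (list mean 9.04 to 9.53 in mutated and 8.44 to 9.01 in deleted tumors), and of 10 vascular markers 4 were higher (8.10 to 8.68 in mutated and 7.77 to 8.43 in deleted tumors), counts that median centring left the same. On deposited values 1 microglia and macrophage marker was higher and 8 lower, and 0 vascular markers were higher and 6 lower. The medians of these 2 lists there, -0.46 and -0.53, still lay above the median of all genes, -0.86. Their part in the result was not tested.

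In Rb/Dicer1/p53-deleted PBs against Dicer1/p53-deleted PBs, which asks what loss of Rb adds, none of the 39 genes was called higher or lower (limma, adjusted p under 0.05), and none of all 22180 genes was (0% in each direction). At an unadjusted p under 0.05, 1112 of all genes were higher and 829 lower, and 4 of the 39 were higher (Incenp, Ccnb2, Cdc20 and Bub3) and 0 lower. Every setting tried gave 0 calls, with quantile normalization and median centring included. The median difference of the 39 genes was 0.14, a median ratio of 1.10, against -0.02 over all genes, and 26 of the 39 differences were positive. Standard errors of 0.148 to 0.315 make small differences undetectable with 3 arrays a group. The 3 tumors of each group did not overlap for 7 of the 39 genes. Incenp, Cdc20, Ccnb2, Prc1, Bub3 and Cenpn were above in every Rb/Dicer1/p53-deleted PB, as were 7.37% of all genes, and Mad2l1 was below in every one, as were 7.42% of all genes.

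Incenp was at 7.61, 7.77 and 7.67 in Rb/Dicer1/p53-deleted PBs and at 7.12, 7.01 and 6.23 in Dicer1/p53-deleted PBs. The triple-deleted tumors were close together, the others were spread downward by PB3, and the difference was 0.90 (95% interval 0.33 to 1.47, adjusted p = 0.455). Cdc20, the activator of the anaphase-promoting complex, was at 9.05, 9.40 and 9.70 in Rb/Dicer1/p53-deleted PBs and at 8.72, 8.52 and 8.89 in Dicer1/p53-deleted PBs. The groups did not overlap, at a difference of 0.67 (0.19 to 1.15, adjusted p = 0.483). Ccnb2 was at 9.88, 10.13 and 10.41 in Rb/Dicer1/p53-deleted PBs and at 9.61, 9.48 and 9.46 in Dicer1/p53-deleted PBs. These groups were also apart, at a difference of 0.62 (0.21 to 1.04, adjusted p = 0.46). Sgol1 was at 9.37, 8.77 and 8.98 in Rb/Dicer1/p53-deleted PBs and at 8.10, 8.92 and 8.67 in Dicer1/p53-deleted PBs. The groups overlapped, with a difference of 0.48 (-0.11 to 1.07, adjusted p = 0.635).

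Mad2l1, the checkpoint protein that captures CDC20, was at 8.69, 8.94 and 9.09 in Rb/Dicer1/p53-deleted PBs and at 9.12, 9.51 and 9.30 in Dicer1/p53-deleted PBs. It ran the other way without overlap, at a difference of -0.40 (-0.82 to 0.01, adjusted p = 0.584). Prc1 was at 10.58, 10.88 and 10.87 in Rb/Dicer1/p53-deleted PBs and at 10.21, 10.43 and 10.56 in Dicer1/p53-deleted PBs, and its groups were separated only narrowly (difference 0.38, -0.02 to 0.77, adjusted p = 0.585). Ccna2 was at 10.32, 10.28 and 10.76 in Rb/Dicer1/p53-deleted PBs and at 10.23, 10.51 and 10.45 in Dicer1/p53-deleted PBs. The ranges overlapped, at a difference of 0.06 (-0.37 to 0.49, adjusted p = 0.948). Cdk1 was at 9.37, 9.15 and 9.43 in Rb/Dicer1/p53-deleted PBs and at 8.90, 9.75 and 9.46 in Dicer1/p53-deleted PBs. The Dicer1/p53-deleted tumors spanned a range that enclosed the others, with a difference of -0.05 (-0.59 to 0.49, adjusted p = 0.961).

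Top2a, Cenpq and Cenpf had the smallest differences between the 2 Dicer1 groups. Top2a was at 10.71, 10.67 and 10.61 in Rb/Dicer1/p53-deleted PBs and at 10.29, 11.11 and 10.67 in Dicer1/p53-deleted PBs, a difference of -0.03 (-0.53 to 0.48) that turned to 0.02 after quantile normalization. Cenpq was at 8.52, 8.39 and 8.43 in Rb/Dicer1/p53-deleted PBs and at 8.35, 8.65 and 8.21 in Dicer1/p53-deleted PBs, a difference of 0.05 (-0.34 to 0.43). Cenpf was at 9.27, 9.19 and 9.09 in Rb/Dicer1/p53-deleted PBs and at 8.91, 9.65 and 9.14 in Dicer1/p53-deleted PBs, a difference of -0.05 (-0.54 to 0.44). For all 3 genes the Dicer1/p53-deleted tumors were the more spread group and enclosed the others. These intervals reach about 0.5 on either side, so a p that misses the threshold does not show that the groups were alike. No gene of the related lists or of the cell type markers was called in this comparison.

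**Figure D4:**
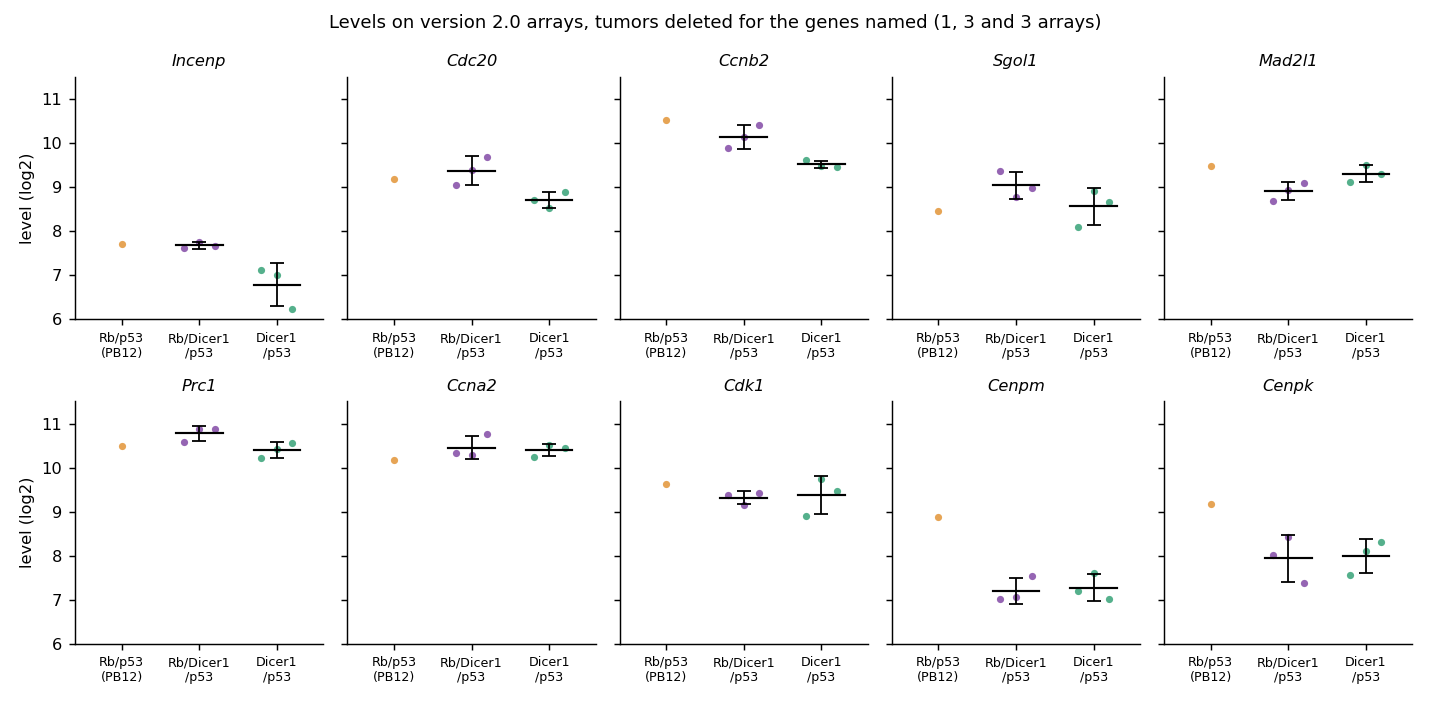
Levels (log2, as deposited) of 10 genes on version 2.0 arrays in Rb/p53-deleted PB12 (n = 1), Rb/Dicer1/p53-deleted PBs (n = 3) and Dicer1/p53-deleted PBs (n = 3), with a point per array and, for the groups of 3, a bar at the mean and a whisker for the SD. Incenp, Cdc20 and Ccnb2 do not overlap between the 2 groups of 3, and PB12 stands above all other points for Cenpm at 8.88 and Cenpk at 9.18. Among the 39 genes, 7 do not overlap. Of these, 6 are higher in Rb/Dicer1/p53-deleted PBs, as are 7.37% of all genes, and Mad2l1 is lower, as are 7.42%.

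Rb/p53-deleted PB12, the only tumor on version 2.0 arrays whose label names no Dicer1 deletion, has no replicate there and was not tested. It lay within the range of the other 6 arrays for 27 of the 39 genes, above it for 7 and below it for 5, while 18.4% of all genes lay above and 18.4% below. The 7 genes above included 5 of the 10 inner kinetochore genes, namely Cenpm, Cenpk, Cenpp, Cenpn and Cenph, with Ccnb2 and Cdc25c. Cenpm was at 8.88 in PB12, against 7.01, 7.06 and 7.55 in Rb/Dicer1/p53-deleted PBs and 7.20, 7.61 and 7.01 in Dicer1/p53-deleted PBs, so PB12 was 1.27 above the highest other array. Cenpk was at 9.18 in PB12, against 8.02, 8.43 and 7.37 in Rb/Dicer1/p53-deleted PBs and 7.56, 8.11 and 8.30 in Dicer1/p53-deleted PBs, a distance of 0.75. Those of Cenpp (0.46), Cenpn (0.30), Cdc25c (0.22), Cenph (0.13) and Ccnb2 (0.11) were smaller. Below the range were Aurka (distance -0.39), Plk4, the kinase of centriole duplication (-0.18), Cenpq and Ttk (-0.13 each) and Ccna2 (-0.05).

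Within the version 1.0 groups, the genes other than Bub3 varied little compared with their distance from cerebellum. Bub3 differed by 0.14 in Rb/p53-deleted PBs, where its SD was 0.1155. Version 2.0 arrays held no cerebellum. The median SD there was 0.269 in Rb/Dicer1/p53-deleted and in Dicer1/p53-deleted PBs, with 15 and 16 genes above 0.3. On version 1.0 arrays 2 genes were above 0.3 in Rb/p53-deleted PBs and 6 in Rb/p53-mutated PBs. In the 11 Rb/p53-deleted PBs the SD of a gene ran from 0.0918 for Aurka to 0.431 for Cenpe, with a median of 0.20. In the 5 Rb/p53-mutated PBs it ran from 0.087 for Cdk1 to 0.372 for Nuf2 (median 0.207), and in cerebellum from 0.008 for Spc24 to 0.595 for Cdk1 (median 0.114). The motor gene Cenpe ranged in Rb/p53-deleted PBs from 8.45 in PB11 upward, with its median at 9.54, and PB11 alone was low. Without PB11 the lowest level of Cenpe was 9.30 and its SD 0.246, and the SD of Cenpf was 0.263 in place of 0.367. The mean level over the 39 genes ran from 9.84 in PB5 to 10.10 in PB3 of the Rb/p53-mutated PBs, from 10.10 in PB1 to 10.44 in PB6 of the Rb/p53-deleted PBs, and from 6.90 to 7.09 in cerebellum.

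PB11 was the highest Rb/p53-deleted PB for 10 of the 39 genes and the lowest for 12, and over all genes it was highest for 22.9% and lowest for 25.3%. PB6 was highest for 10 genes and lowest for none (5.3% and 7.3% of all genes), and PB4 was highest for 9 and lowest for none (6.7% and 6.4%). PB7 and PB8 were highest for 1 each and lowest for none (5.8% and 8.8% of all genes in PB7, 2.5% and 6.5% in PB8). PB9 was lowest for 10 and highest for 1 (8.6% and 9.2%), and PB1 was lowest for 8 and highest for 1 (6.9% and 8.6%). Among Rb/p53-mutated PBs, PB3 was highest for 17 genes and lowest for none (14.1% and 17.8% of all genes), while PB5 was lowest for 18 and highest for 1 (25.2% and 23.7%). Among Dicer1/p53-deleted PBs, PB2 was highest for 25 genes (33.9% of all genes) and PB1 lowest for 29 (30.7%), and among Rb/Dicer1/p53-deleted PBs, PB3 was highest for 23 (33.1%) and PB1 lowest for 22 (37.3%). Across the 11 Rb/p53-deleted PBs, the 741 pairs of genes had a median Pearson correlation of 0.292, which was 0.394 without PB11, and 175 pairs (90 without PB11) were below 0. These correlations describe arrays that share their normalization, and no test was made of them.

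**Figure D5:**
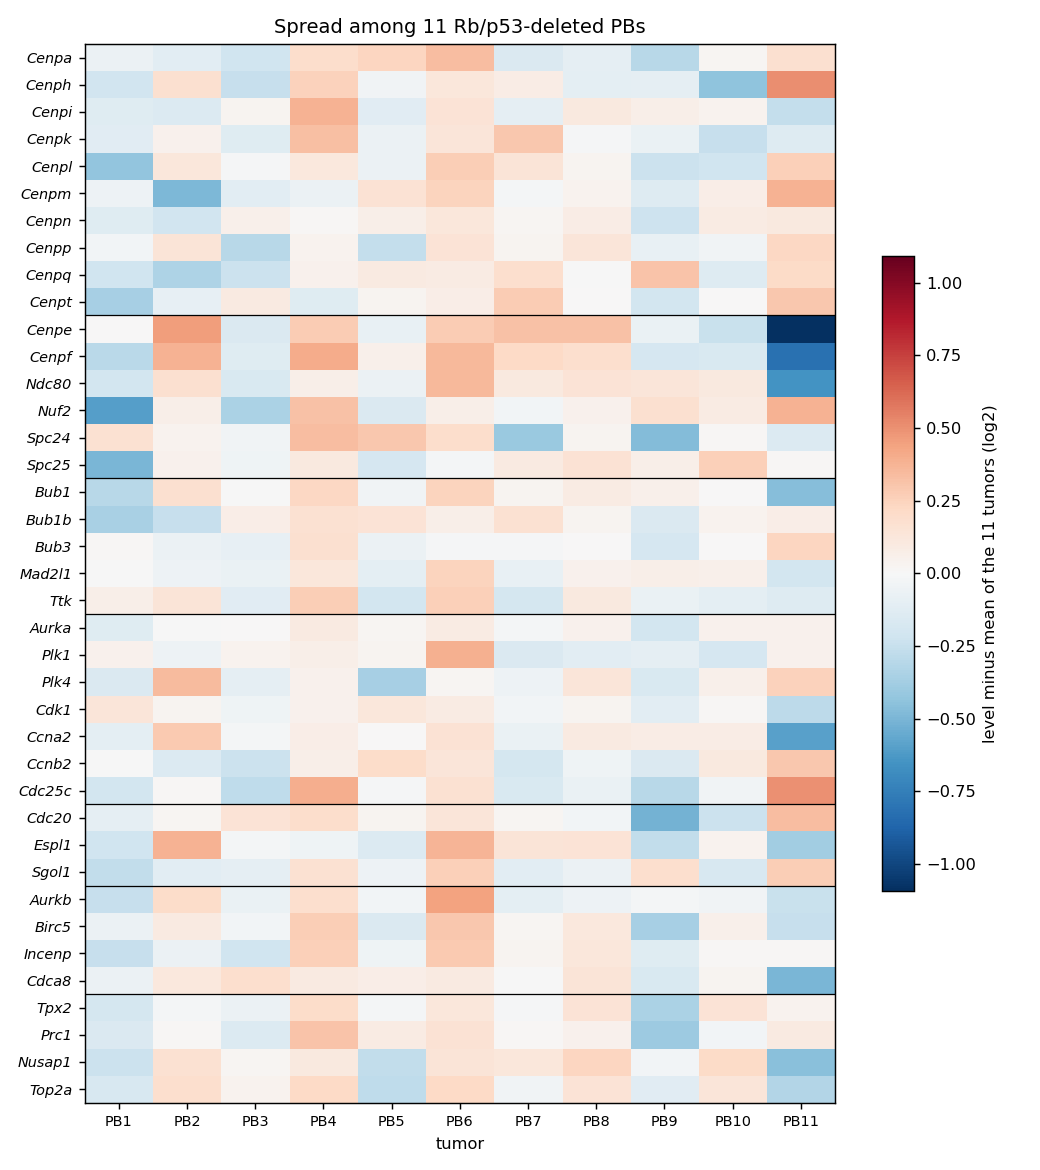
Level of each of the 39 genes in Rb/p53-deleted PB1 to PB11 minus its mean over the 11 tumors (log2, quantile-normalized), as a heat map with genes in rows by role and tumors in columns. PB11 holds 10 genes at their highest and 12 at their lowest, PB6 also holds 10 at their highest, and PB4, PB6, PB7 and PB8 hold no lowest gene. Of all genes, PB11 holds 22.9% at their highest and 25.3% at their lowest, and PB6 holds 5.3% at their highest. PB4, PB6, PB7 and PB8 hold 6.4%, 7.3%, 8.8% and 6.5% of all genes at their lowest.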

How the data were processed

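Trizol-extracted RNA of the PBs and of cerebellum was run on Mouse Gene ST arrays (Affymetrix) of version 1.0 (19 samples) or 2.0 (7 samples). The values deposited by the authors are log2 RMA values per transcript cluster, background-corrected, quantile-normalized and summarized in Affymetrix Expression Console. Neither the program's version nor the sets of arrays it normalized together are given in the sources used here. Both tables were used whole, with no column left unused. Groups came from the sample titles.

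Clusters were named through the platform annotation, with symbols updated by gene identifier. Clusters with several genes were left out, and the cluster with the highest mean stood for a gene with several. The 19 version 1.0 arrays were quantile-normalized together, and version 2.0 values were used as deposited. Group means were tested with limma 3.58.1 under R 4.3.3 (lmFit, then eBayes, two-sided, only the arrays of both groups, Benjamini-Hochberg over all named genes). The threshold was an adjusted p under 0.01 against cerebellum, as in the study's methods, and 0.05 between tumors. Residual degrees of freedom were 12 and 6 against cerebellum, 14 for mutated against deleted p53, and 4 between the Dicer1 groups. Intervals of 95% use the moderated degrees of freedom. The fit was tested on simulated data with known differences. Precision is limited by how many arrays each group has.

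The 40 genes, the related lists and the marker lists were chosen with earlier results of these data known. Per-sample values are given, in each comparison, for the 6 genes with the largest and the 3 with the smallest difference and for Ccna2, Ccnb2 and Cdk1. Of the related lists, up to 4 genes with the largest difference past the threshold are named. Any other gene given with a value serves as an example and was picked with its value known. Alternatives were values as deposited or quantile-normalized, median centring, a filter on genes below the median level, the mean of a gene's clusters, all arrays in the fit, a variance trend, the replicate number or array set as a block, and leaving out samples. Promoter windows came from RefSeq (GRCm38.p6), and the first window of a gene was used.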

Additional observations from a re-analysis of the deposited data

Results flagged for a closer look

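In Rb/p53-mutated PBs, the only group of 4 to 10 arrays, 2 of the 39 genes had 1 tumor far from the others. Ndc80 was at 8.43 in PB2, and the nearest tumor was at 8.90, a gap of 0.719 of the group's range. Cdc20 was at 9.65 in PB5, against 9.98 in the nearest tumor, a gap of 0.716 of the range. The limit for 5 arrays is 0.71, and chance passes it for about 1 in 20 groups, which is close to 2 of 39.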

How the results depend on the processing

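Against cerebellum, the 38 genes higher in Rb/p53-deleted PBs were called under every setting that tested them, and leaving out PB11 or any 1 cerebellum sample gave 38 higher and 0 lower (PB1 to PB10 were not left out in turn). With the array set as a block the contrast rests on PB11 alone. The filter on low values tested 37 of the 38 genes. It kept genes by their mean over tumors and cerebellum together. All 39 genes lay above the median gene in Rb/p53-deleted and in Rb/p53-mutated PBs, but only 3 did in cerebellum. Most genes thus passed the filter through the tumors, so calls under it are no separate support. For Bub3 the difference turned to -0.28 on deposited values and -0.11 after median centring. In Rb/p53-mutated PBs, 36 of the 38 genes kept their call. The others were Cenpt (0.45, adjusted p = 0.0185) and Incenp (0.34, adjusted p = 0.0156), both on deposited values, and the filter left 26 higher genes because it tested fewer. Without 1 array, 38 genes were higher and 0 to 1 lower. Replicate numbers did not pair the samples (correlations of same-numbered samples' deviations -0.20 to 0.29). With the replicate number as a block, 0 genes were lower in Rb/p53-mutated PBs than in cerebellum (Bub3 at -0.59, adjusted p = 0.0185), and against Rb/p53-deleted PBs 17 were lower and 1 higher, with Cenpf at -0.059. For Rb/p53-mutated against Rb/p53-deleted PBs, 0 genes were higher and 38 lower on deposited values, and 5 and 12 after median centring. On deposited values 8 genes turned negative, Cenpk (-0.55), Cenpl (-0.79), Cenpn (-0.66), Cenpq (-0.82), Cenpt (-0.26), Cenpf (-0.81), Ccnb2 (-0.44) and Cdc25c (-0.60), as the offset of the mutated arrays stays in these values. After median centring Mad2l1 (0.0091), Aurkb (0.11) and Nusap1 (0.0075) turned positive. Without deleted PB11 or 1 of the mutated tumors, the arrays left out here, 1 to 2 genes were higher and 14 to 22 lower, 22 of them without PB11, and the differences of Cenpf (-0.058 to 0.082) and Cenpn (-0.025 to 0.13) crossed 0. Between the Dicer1 groups, 0 genes were called under any setting and without any array. Top2a turned to 0.018 after quantile normalization and 0.0076 after median centring, and without 1 array the ranges of Cenpq (-0.052 to 0.17), Cenpf (-0.21 to 0.16), Cdk1 (-0.29 to 0.14), Ccna2 (-0.10 to 0.14) and Top2a (-0.23 to 0.18) crossed 0. The cause of these changes was not tested otherwise. The version 2.0 comparison had 4 residual degrees of freedom, which limits what it can show.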
